A study of Mus musculus with 12 samples.

Results

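The early response of C2C12 myotubes to leukemia inhibitory factor (LIF) was measured at 4 h and at 8 h, on 4 of the 12 arrays of the series. C2C12 is a mouse myoblast line that fuses into myotubes in culture, and the cells had differentiated for 3 days. The groups were myotubes with 10 ng/ml mouse LIF for 4 h, untreated myotubes at 4 h, myotubes with the same LIF for 8 h, and untreated myotubes at 8 h. Each group is 1 array, hybridised with RNA pooled from 3 wells, so well-to-well spread cannot be seen and the 4 h and 8 h pairs served as the 2 repeats of the early response. A gene was called alike when LIF minus untreated had the same sign at both times and a size of at least 0.3 on the log2 scale at each. The other arrays hold LIF and untreated myotubes at 24 h, and medium conditioned by C26 colon carcinoma cells with its own untreated arrays at 4, 8 and 24 h. The culture is one cell line without the nerves, vessels and immune cells of muscle.

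LIF is a cytokine of the interleukin-6 family. It binds the LIF receptor, which pairs with gp130 (Il6st), and the JAK kinases held by these chains phosphorylate STAT3, which enters the nucleus as a dimer and switches on target genes. One of these targets, Socs3, feeds back on the receptor complex and limits the signal. The same receptors also feed the ERK and PI3K pathways, and in muscle LIF is known both as a factor released after exercise and injury and as a mediator of wasting in tumour-bearing mice.

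The arrays gave 1 log2 expression value for each of 21187 genes, rounded to 1 decimal. Levels of 1288 genes of smell and pheromone receptors, most of which are used mainly in sensory tissue, set the background range on each array by their 95th percentile, at 4.8 to 4.96. By its mean over the 4 arrays, a gene was above background in 14025 cases and in the background range in 7162. All 12 myotube markers, from Acta1 to Casq2, were above background, with summed linear levels of 31700 with LIF and 32800 untreated at 4 h, and 31900 with LIF and 32200 untreated at 8 h. The fibroblast and unfused cell markers summed to 6050 with LIF and 6100 untreated at 4 h, and to 6230 with LIF and 5990 untreated at 8 h. Of 10 leukocyte markers only Cd68, Cd14 and Cd53 were above background, and the defining Ptprc, Adgre1, Csf1r and Itgam were in the background range.

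The yardstick for chance differences was the pair of untreated arrays, which carry no LIF and differ in time. Over the genes above background, the 8 h minus 4 h difference between them had an SD of 0.179 across genes, against 0.139 for LIF minus untreated at 4 h and 0.133 at 8 h. Past 0.3 in size lay 1620 genes, or 11.6%, between the untreated arrays, 888 genes between LIF and untreated at 4 h, and 766 at 8 h. The untreated cultures therefore differed from each other over 4 h by more than LIF-treated cultures differed from untreated ones of the same hour. Single-time differences of 0.3 are not rare within this spread, so the description centres on genes alike at both times. Other genes are given beside them.

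Most of the alike genes carried a small change, and the highest ones were far fewer. Across all genes, 111 were higher with LIF at both times (0.524% of 21187) and 94 were lower (0.444%), in all 205 (0.968%), while 129 were past 0.3 in opposite directions (0.609%). Among genes above background, 75 were higher (0.535% of 14025) and 53 lower (0.378%), in all 128 (0.913%), against 37 with opposite signs (0.264%). In the background range the count of alike genes, 77, was below that of opposite ones, 92. Raising the smallest change to 0.4 left 39 alike and 6 opposite genes above background, and 0.5 left 19 and 5. At 1.0 only Prg4 and Serpina3n remained and no gene had opposite signs. With the genes above background split by level into 4 classes of nearly equal size, the brightest class held 15 alike genes and 0 opposite ones, and the dimmest 46 and 21.

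**Figure D1:**
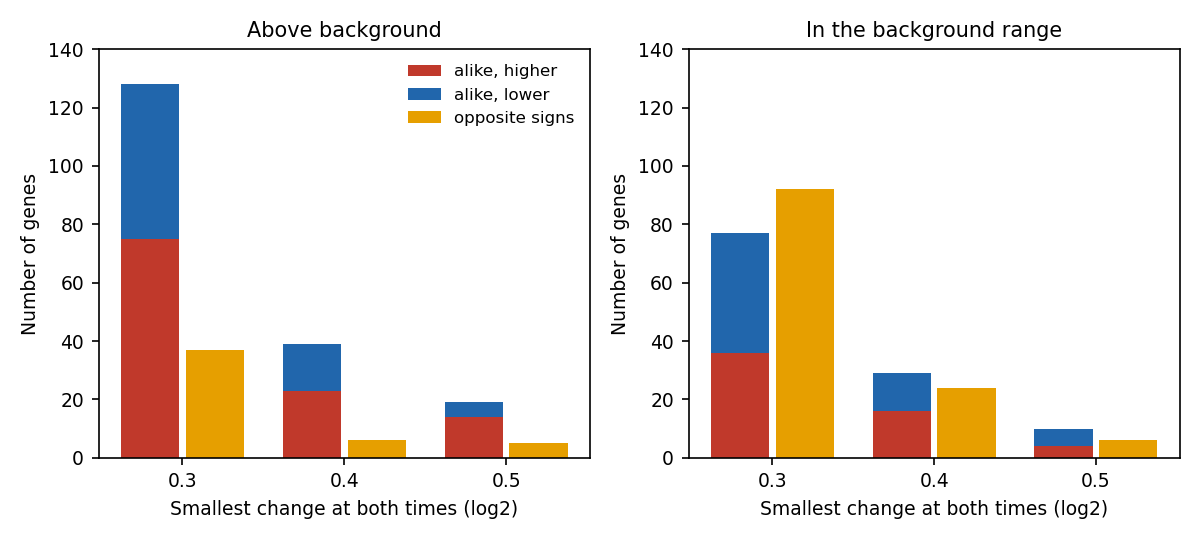
Number of genes (vertical axis) past each smallest log2 change (horizontal axis) at both times, for genes above background (left) and in the background range (right). Bars stack genes higher (red) and lower (blue) with LIF at both times beside genes with opposite signs (orange): 128 against 37 above background at 0.3, and 77 against 92 in the background range.

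Rounding decides many of these memberships. Of the genes above background, 22 higher and 16 lower ones stood at exactly 0.3 at both times. A further 128 higher and 110 lower genes missed the rule by 1 step, with 0.2 at 1 time and 0.3 or more at the other. Across the 14025 genes the 4 h and 8 h changes had a Pearson correlation of 0.14 and a Spearman correlation of 0.09, and in the background range both were 0.02. These describe genes on shared arrays, which are not independent replicates.

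**Figure D2:**
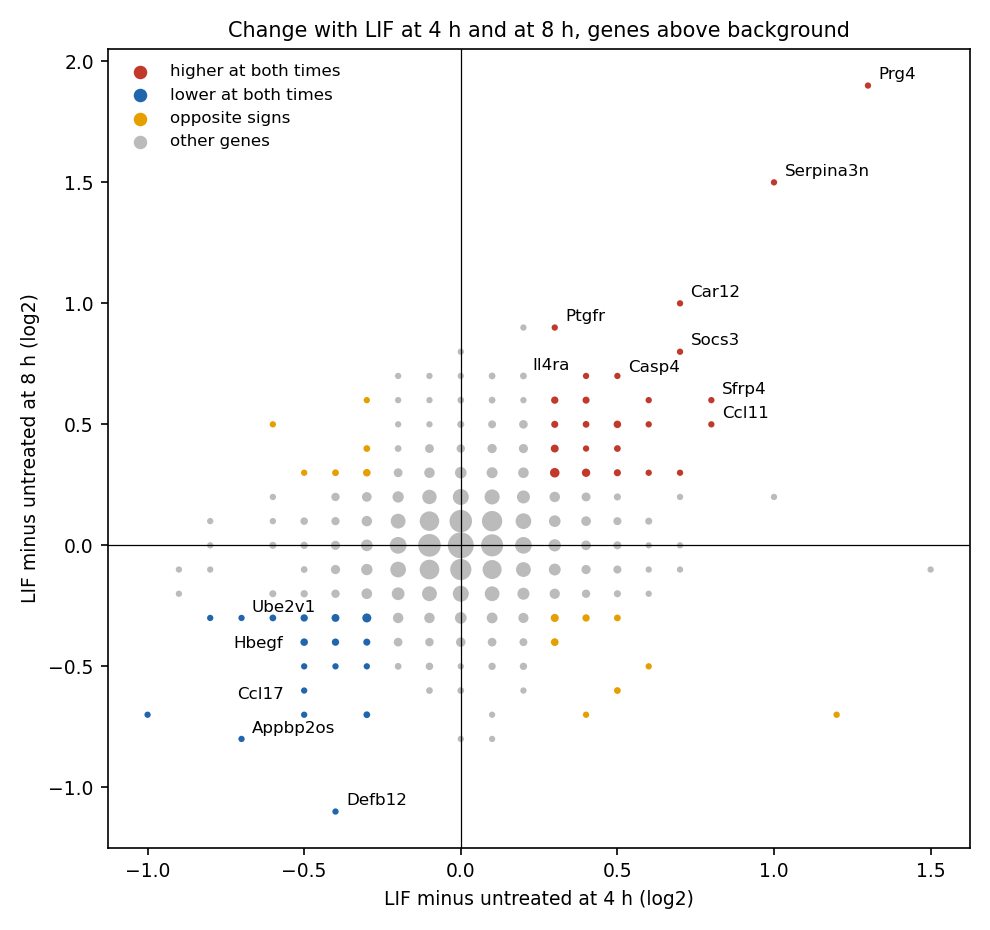
Change with LIF at 4 h (horizontal axis, log2) and at 8 h (vertical axis, log2) for the 14025 genes above background, with dot area growing with the number of genes at each rounded pair of values. Prg4 at 1.3 and 1.9 and Serpina3n at 1.0 and 1.5 lie apart from the other genes that were higher at both times (red), and genes lower at both times (blue) mostly lie nearer to 0.

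No gene passed limma's moderated test of LIF against untreated with time as a block, at an adjusted p of 0.05. The smallest adjusted p of this limma fit was 0.0695, and 2563 genes had an unadjusted p under 0.05. The rounding limits this test, because 5331 genes (25.2%) had exactly the same change at 4 h and at 8 h and so a spread of 0, which upsets the estimate of the typical spread. A second limma fit, chosen after seeing this, added the variance of rounding to each gene's spread before the moderation. It called 33 genes higher (0.156% of 21187) and 19 lower (0.0897%), among them 31 of the 128 alike genes above background, but also 7 smell or pheromone receptor genes. This fit gives genes of like level 1 shared spread, so its small p-values rest on the size of a change and not on how well the repeats of that gene match. A gene is described as passing only where this second fit called it.

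Among the genes downstream of STAT3, a feedback inhibitor, receptor chains and a few transcriptional regulators were higher at both times. Socs3, the feedback inhibitor of gp130 signalling, had a log2 level of 8.7 with LIF against 8.0 untreated at 4 h, and 8.7 with LIF against 7.9 untreated at 8 h. Both LIF arrays were above both untreated arrays, and the mean difference of 0.75 passed. The genes were chosen on these same arrays, so separation of the groups, here and below, describes them and adds no support. Osmr, the oncostatin M receptor that shares gp130 with the LIF receptor, had 10.2 with LIF against 9.9 untreated at 4 h, and 10.4 with LIF against 9.8 untreated at 8 h. The groups did not overlap, and its mean difference of 0.45 passed although it lies far below that of Socs3. Bcl3, an atypical IkB protein that acts in the nucleus, had 7.5 with LIF against 7.1 untreated at 4 h, and 7.8 with LIF against 7.2 untreated at 8 h. It too separated fully and passed. Cebpd, a transcription factor of the acute phase response, was near the median level of the arrays, with 6.1 with LIF against 5.7 untreated at 4 h and 6.1 with LIF against 5.8 untreated at 8 h, and its mean difference of 0.35 did not pass.

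Of 36 measured STAT3 targets and feedback genes, 5 were alike higher and 0 lower, where 0.524% and 0.444% of all genes were: Socs3, Bcl3, Cebpd, Il4ra and Osmr. The list's median change was 0.0 at 4 h and 0.1 at 8 h, against 0.0 at both times over all genes. A total of 12 members lay above 0 at both times and 6 below, where all 21187 genes gave 2675 and 2446. The lists, here and below, were drawn up with earlier results of these data known, so their shares describe them and add no support. The signalling chains themselves stayed close to the untreated level. Lifr, the LIF receptor, had 8.7 on both 4 h arrays, and 8.6 with LIF against 8.7 untreated at 8 h. Il6st had 10.1 on both 4 h arrays, and 10.1 with LIF against 10.0 untreated at 8 h. Stat3, itself a known STAT3 target, differed by 0.0 at 4 h and 0.1 at 8 h, and 0 of 11 JAK and STAT genes were alike in either direction. Junb, another classical immediate target of this pathway, differed by -0.1 and 0.1, and Timp1 by 0.2 and 0.1.

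STAT dimers are known to bind TTCNNNGAA, so this motif was sought on both strands in the RefSeq promoter windows of GRCm38.p6, from 250 bases before to 50 bases after each gene's start. It occurred in 8 of 71 windows (11.3%) of the alike higher genes above background, in 5 of 36 windows (13.9%) of the alike lower ones, and in 914 of 13610 windows (6.72%) of all genes above background. The stricter forms TTCCNNGAA or TTCNNGGAA occurred in 5.63% of the higher, 5.56% of the lower and 4.34% of all windows of genes above background, and TTCCNGGAA in 0 of 71, 0 of 36 and 163 of 13610 (1.2%). Windows were held for 60 of the 75 higher and 33 of the 53 lower genes. The 3 higher genes with the largest change among those with a match were Socs3, Ifi202b and Slc1a3, and on the lower side Ccl17. Their windows are printed 5′ to 3′ on the strand of the gene, with the match in capitals; Socs3 is at chr11:117969317-117969616 (minus strand), Ifi202b at chr1:173982795-173983094 (minus), Slc1a3 at chr15:8710758-8711057 (minus) and Ccl17 at chr8:94810203-94810502 (plus).
Socs3: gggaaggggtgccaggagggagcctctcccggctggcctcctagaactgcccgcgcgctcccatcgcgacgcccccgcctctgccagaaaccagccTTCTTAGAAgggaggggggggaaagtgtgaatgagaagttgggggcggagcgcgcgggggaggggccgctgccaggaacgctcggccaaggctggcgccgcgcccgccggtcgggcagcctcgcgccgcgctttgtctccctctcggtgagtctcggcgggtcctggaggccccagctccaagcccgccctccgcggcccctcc
Ifi202b: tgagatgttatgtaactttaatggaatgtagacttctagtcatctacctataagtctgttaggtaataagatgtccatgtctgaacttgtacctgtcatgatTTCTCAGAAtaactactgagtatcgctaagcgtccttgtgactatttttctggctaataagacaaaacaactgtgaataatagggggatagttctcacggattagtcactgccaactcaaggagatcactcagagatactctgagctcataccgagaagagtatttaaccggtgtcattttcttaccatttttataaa
Slc1a3: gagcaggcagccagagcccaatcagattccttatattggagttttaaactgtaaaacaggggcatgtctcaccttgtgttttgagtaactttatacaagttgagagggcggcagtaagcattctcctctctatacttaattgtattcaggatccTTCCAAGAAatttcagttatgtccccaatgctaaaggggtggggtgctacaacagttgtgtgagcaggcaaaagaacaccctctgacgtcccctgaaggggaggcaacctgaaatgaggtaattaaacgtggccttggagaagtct
Ccl17: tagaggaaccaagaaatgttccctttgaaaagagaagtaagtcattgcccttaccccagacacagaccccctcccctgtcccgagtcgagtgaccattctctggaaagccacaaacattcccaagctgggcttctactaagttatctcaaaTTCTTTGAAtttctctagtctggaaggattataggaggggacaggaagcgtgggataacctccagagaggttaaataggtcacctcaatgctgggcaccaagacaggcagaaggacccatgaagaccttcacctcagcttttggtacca
A match in such a window is a description of the letters and not a measured binding site, and Socs3 and Ccl17, which lay on opposite sides with LIF, both hold one.

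A pair of receptor chains and an alarmin of type 2 immunity were also higher at both times. Il4ra, the alpha chain shared by the interleukin-4 and interleukin-13 receptors, had 9.2 with LIF against 8.8 untreated at 4 h, and 9.3 with LIF against 8.6 untreated at 8 h. Il13ra1, its partner chain, had 9.5 with LIF against 9.1 untreated at 4 h, and 9.5 with LIF against 8.9 untreated at 8 h. Il33, a nuclear alarmin cytokine, had 7.2 with LIF against 6.7 untreated at 4 h, and 6.9 with LIF against 6.4 untreated at 8 h. For each of the 3 genes both LIF arrays were above both untreated arrays, and each passed. They are 3 of 9 measured members of a list of type 2 receptors and alarmins (0.524% of all genes were alike higher). Of these 9, 0 were alike lower (0.444% of all genes) and 5 were above 0 at both times (2675 of all 21187). The median was 0.1 at each time. Il4ra is also counted in the list of STAT3 targets, and this list too was drawn up with earlier results known.

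**Figure D3:**
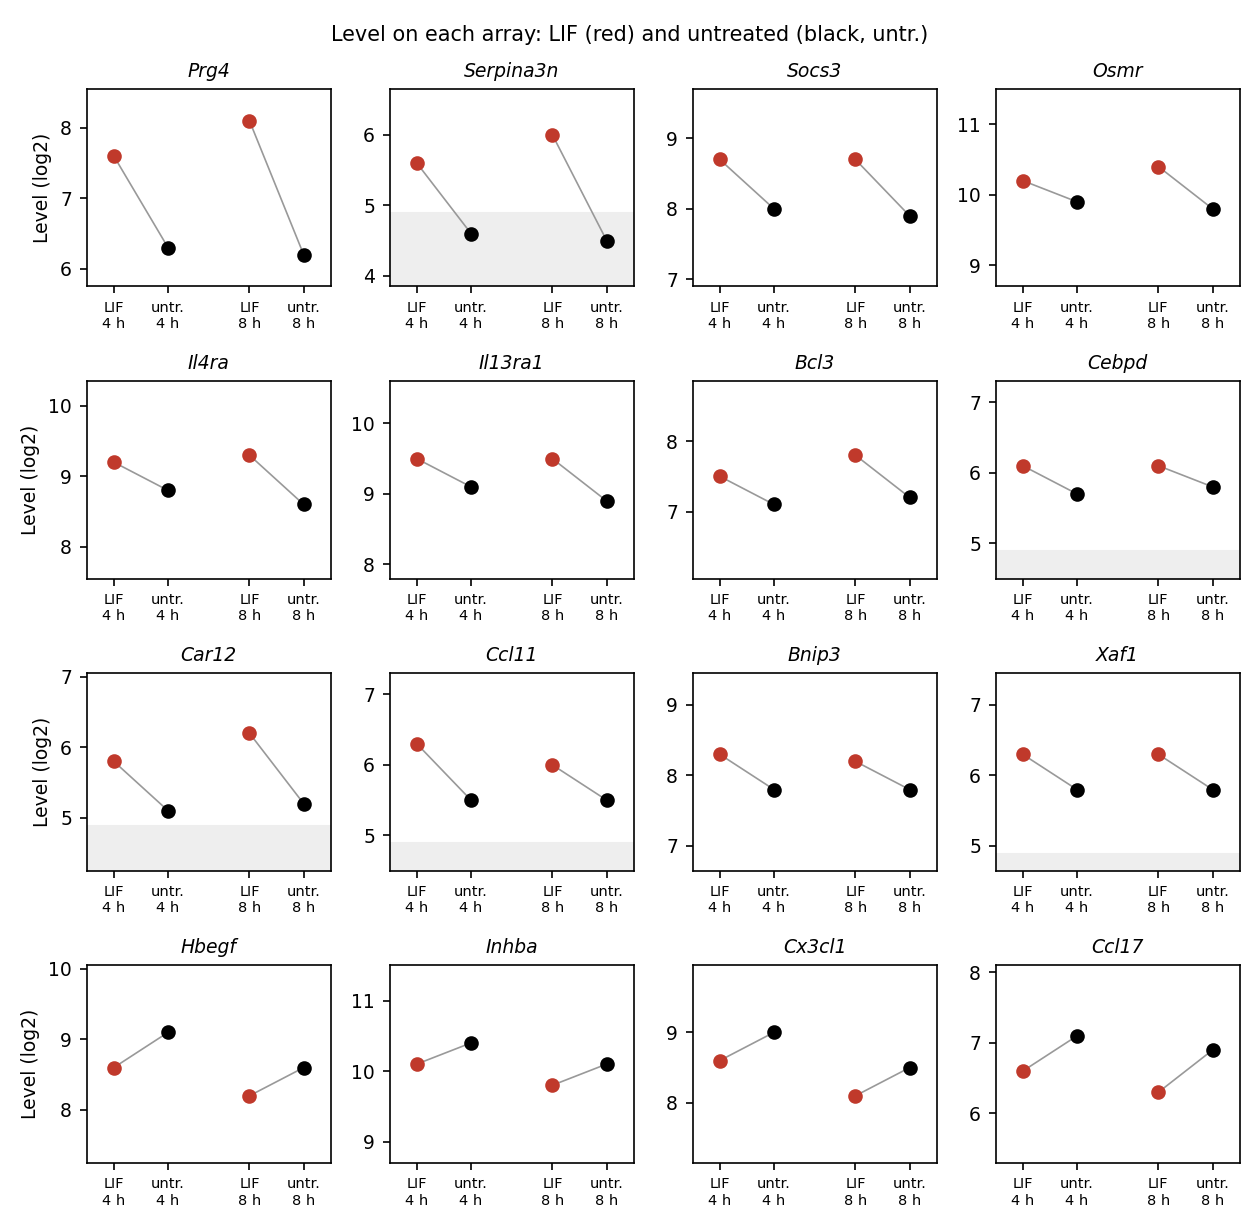
Log2 level of 16 genes on each of the 4 arrays, LIF (red) left of untreated (black) at 4 h and at 8 h, every panel spanning the same 2.8 log2 units and the mean background range shaded in grey. The pairs slope down from LIF to untreated for the 12 genes from Prg4 to Xaf1 and up for Hbegf, Inhba, Cx3cl1 and Ccl17, whose levels were also lower at 8 h than at 4 h in untreated cells.

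The highest change of all belonged to Prg4, which encodes lubricin, a mucin-like glycoprotein of joint fluid and tendon surfaces. Its level was 7.6 with LIF against 6.3 untreated at 4 h, and 8.1 with LIF against 6.2 untreated at 8 h. The 2 LIF arrays stood at least 1.3 above both untreated arrays, whereas the untreated arrays differed by 0.1 from each other. Serpina3n, a secreted serine protease inhibitor of the acute phase, had 5.6 with LIF against 4.6 untreated at 4 h, and 6.0 with LIF against 4.5 untreated at 8 h. Its untreated levels lay in the background range at both times, so the difference of the means, 5.8 with LIF and 4.55 untreated, is given as at least 1.89-fold higher with LIF, and it passed. Serpina3n belongs to a cluster of closely related genes, and probes shared with its relatives cannot be told apart here. It was the only alike gene in a list of 22 acute phase genes, which also counts the receptor gene Lifr. Only 6 of the 22 were above background, and 0.524% of all genes were alike higher and 0.444% lower.

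Other matrix genes had smaller differences. Vcan, the large hyaluronan-binding proteoglycan versican, had 10.4 with LIF against 10.1 untreated at 4 h, and 10.7 with LIF against 10.4 untreated at 8 h. Ugdh, which makes the UDP-glucuronate used for hyaluronan and proteoglycans, had 10.5 with LIF against 10.2 untreated at both times. Neither passed, and the LIF value of Vcan at 4 h equalled its untreated value at 8 h. Sfrp4, a secreted Wnt antagonist, had 6.4 with LIF against 5.6 untreated at 4 h, and 6.2 with LIF against 5.6 untreated at 8 h, and passed. Col8a1, a short-chain collagen of vessel walls, was 0.3 lower at each time and did not pass. Of 33 matrix, protease and hyaluronan genes, 3 were alike higher and 1 lower, against 0.524% and 0.444% of all genes. Their median was 0.0 at 4 h and 0.1 at 8 h.

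Genes of inflammation were split in direction. Ccl11, the eosinophil chemokine eotaxin, had 6.3 with LIF against 5.5 untreated at 4 h, and 6.0 with LIF against 5.5 untreated at 8 h. Ccl17, a ligand of CCR4 on T helper cells, ran the other way, with 6.6 with LIF against 7.1 untreated at 4 h and 6.3 with LIF against 6.9 untreated at 8 h. Both genes separated the groups without overlap, and both passed. Cx3cl1, the membrane-bound chemokine fractalkine, had 8.6 with LIF against 9.0 untreated at 4 h, and 8.1 with LIF against 8.5 untreated at 8 h, and passed with overlapping groups, because its level was also 0.5 lower at 8 h than at 4 h in untreated cells. Il1b, the inflammatory cytokine interleukin-1 beta, had 5.3 with LIF against 4.7 untreated at 4 h, and 5.3 with LIF against 5.0 untreated at 8 h, close to the background limit, and did not pass. Of 30 NF-kB targets and chemokines, 4 were alike higher (Bcl3, Il1b, Ccl11 and the dim Ccl8), 2 were alike lower (Ccl17 and Cx3cl1) and 1 had opposite signs. The shares over all genes were 0.524%, 0.444% and 0.609%. Ccl2, the monocyte chemokine, differed by -0.1 at 4 h and 0.0 at 8 h.

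Casp4, Ifi202b, Sting1 and Cd53, which are known from immune cells or the defence against infection, were higher at both times and passed. Casp4, the mouse caspase-11 that senses cytosolic lipopolysaccharide, had 7.0 with LIF against 6.5 untreated at 4 h, and 7.1 with LIF against 6.4 untreated at 8 h, and passed. Ifi202b, an interferon-inducible DNA-binding protein of the p200 family, had 7.6 with LIF against 7.2 untreated at 4 h, and 7.7 with LIF against 7.1 untreated at 8 h, and passed. Its family members are near-identical in parts, and the probes could share signal with them. Sting1, the adaptor of cytosolic DNA sensing, which was picked after its values were seen, had 9.2 with LIF against 8.8 untreated at 4 h and 9.0 with LIF against 8.5 untreated at 8 h, and passed. Xaf1, a pro-apoptotic interferon-stimulated gene, had 6.3 with LIF against 5.8 untreated at both times and did not pass. Of 37 interferon response genes, 2 were alike higher (Xaf1 and the dim Gbp2) and 0 lower, where 0.524% and 0.444% of all genes were. Their median was 0.1 at 4 h and 0.0 at 8 h, and 22 of the 37 were above background. At both times 11 of the 37 were above 0 and 4 below, where all 21187 genes gave 2675 and 2446. Oasl2, among the strongest interferon targets in mouse cells, differed by 0.3 at 4 h and 0.1 at 8 h. Cd53, a tetraspanin best known from leukocytes, had 7.8 with LIF against 7.3 untreated at both times and passed. The 10 leukocyte markers summed to 490 with LIF and 427 untreated at 4 h, and to 484 with LIF and 411 untreated at 8 h. Without Cd53 the other 9 summed to 268 with LIF and 269 untreated at 4 h, and to 261 with LIF and 254 untreated at 8 h. The part of such cells in the changes above was not tested.

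Several genes known from hypoxia and from energy metabolism were higher. Car12, a membrane-bound carbonic anhydrase, had 5.8 with LIF against 5.1 untreated at 4 h, and 6.2 with LIF against 5.2 untreated at 8 h. Bnip3, a receptor for mitophagy, had 8.3 with LIF against 7.8 untreated at 4 h, and 8.2 with LIF against 7.8 untreated at 8 h. Both separated the groups and passed. Pdk1, a kinase that closes the entry of pyruvate into mitochondria, had 8.1 with LIF against 7.7 untreated at 4 h, and 8.1 with LIF against 7.8 untreated at 8 h, and did not pass. Of 33 measured genes of glycolysis and hypoxia these 3 were alike higher and 0 lower, against 0.524% and 0.444% of all genes. A total of 15 were above 0 at both times and 4 below, where all 21187 genes gave 2675 and 2446. The median was 0.1 at each time. Xdh, the purine-degrading xanthine dehydrogenase, had 5.6 with LIF against 5.0 untreated at 4 h, and 5.6 with LIF against 5.1 untreated at 8 h, and did not pass. Respiratory chain subunits showed 0 alike genes of 22 and a median of 0.0 at both times.

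Among the lower genes were ligands and feedback regulators of growth factor signalling. Hbegf, a ligand of the EGF receptor, had 8.6 with LIF against 9.1 untreated at 4 h, and 8.2 with LIF against 8.6 untreated at 8 h. The LIF level at 4 h equalled the untreated level at 8 h, and the mean difference of -0.45 passed. Inhba, the subunit of activin A, had 10.1 with LIF against 10.4 untreated at 4 h, and 9.8 with LIF against 10.1 untreated at 8 h. Dusp4, a nuclear phosphatase that switches off ERK, had 7.5 with LIF against 7.9 untreated at 4 h, and 7.2 with LIF against 7.5 untreated at 8 h. Neither of these passed, and in all 3 genes the untreated level was also lower at 8 h than at 4 h, by 0.3 to 0.5. Pdgfb and Edn1, which encode platelet-derived growth factor B and endothelin 1 and were picked after their values were seen, were lower by 0.3 at 4 h and by 0.3 and 0.4 at 8 h. Ccn2, the connective tissue growth factor, had 10.8 with LIF against 11.4 untreated at 4 h but 10.3 with LIF against 10.5 untreated at 8 h, short of the rule, although its mean difference of -0.40 passed, and its untreated level differed by -0.9 between 8 h and 4 h. Of 36 immediate early and ERK pathway genes, 0 were alike higher and 2 lower, against 0.524% and 0.444% of all genes. At both times 1 was above 0 and 15 were below, where all 21187 genes gave 2675 and 2446. The median was -0.1 at 4 h and 0.0 at 8 h. Between the untreated arrays, 8 h minus 4 h, this list had a median of -0.3, against 0.01 in the C26 experiment. The 24 TGF-beta and activin targets gave 0 alike higher, 1 lower (Inhba), and 5 above and 12 below 0 at both times. Their untreated median was -0.15, against -0.02 in the C26 experiment. Of the 22 YAP and TEAD targets 0 were alike. The part of the untreated difference in these lower levels was not tested.

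The lists of contraction, myogenic regulator and atrophy genes held no alike gene, and with 0.913% of all genes above background alike, lists of this size would hold few or none. Of 44 sarcomere and contraction genes 0 were alike, 0 were above 0 at both times and 13 were below. All 21187 genes gave 2675 above 0 at both times and 2446 below. The median of the list was 0.0 at 4 h and -0.1 at 8 h. Acta1, skeletal alpha actin, had 12.2 on both 4 h arrays, and 12.1 with LIF against 12.2 untreated at 8 h. Myog, a transcription factor that drives myotube differentiation, differed by 0.0 and 0.1, and Myod1 by 0.1 and 0.0. The atrophy ligases Fbxo32 (atrogin-1) and Trim63 (MuRF1), which mark muscle wasting, differed by 0.1 at 4 h and by 0.0 and 0.1 at 8 h. Of 20 atrophy and FoxO genes 0 were alike, as were 0 of 19 myogenic regulators and 0 of 26 proteasome subunits. Myot, the Z-disc protein myotilin, is not in these lists and was alike lower. It had 6.6 with LIF against 7.1 untreated at 4 h and 6.2 with LIF against 6.7 untreated at 8 h, and it passed. Its untreated level differed by -0.4 between 8 h and 4 h. Of the repressors of myogenesis only Snai1 was alike, 1 of 21, with 8.5 with LIF against 8.2 untreated at both times, and it did not pass.

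The lists of mitosis and DNA replication and of cholesterol synthesis differed at 4 h the same way as the untreated arrays did over time, and none of their members was alike at both times. The 30 mitosis and DNA replication genes had a median change with LIF of 0.2 at 4 h and 0.0 at 8 h, and 0 were alike. At both times 13 of them were above 0 and 0 below, where all 21187 genes gave 2675 and 2446. Mcm5, a subunit of the replicative helicase, had 8.3 with LIF against 7.7 untreated at 4 h, but 8.5 with LIF against 8.6 untreated at 8 h. The same list was 0.5 higher at 8 h than at 4 h in the untreated arrays of this experiment (median), and 0.01 in those of the C26 experiment. The 21 cholesterol synthesis genes had a median of -0.1 at 4 h and 0.0 at 8 h, while they were 0.6 lower at 8 h than at 4 h in the untreated arrays, against 0.08 higher in the C26 experiment. Of these 21, 2 were above 0 with LIF at both times and 9 below.

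The same can be described across genes. Grouped by their difference between the untreated arrays, 141 genes that were lower by 0.5 or more at 8 h averaged -0.27 with LIF at 4 h and 0.06 at 8 h. The 231 genes that were higher by 0.5 or more averaged 0.3 with LIF at 4 h and -0.04 at 8 h. This grouping shares the untreated 4 h array with the 4 h comparison and the untreated 8 h array with the 8 h comparison, which alone would give slopes of opposite sign, so no result is read from them, and the averages of the C26 experiment's own untreated difference for the same 2 groups were -0.02 and 0.06. With the same arrays shared, 14 of 75 higher ones and 20 of 53 lower ones also differed past 0.3 the same way between the untreated arrays, where 6.19% of all genes above background were higher and 5.36% lower. With genes past 0.3 between the untreated arrays left out, 58 higher and 30 lower alike genes remained. Hbegf, Cx3cl1, Inhba, Dusp4 and Myot are among the lower genes this leaves out. With 1 untreated array at each time, the array and the culture time cannot be told apart.

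**Figure D4:**
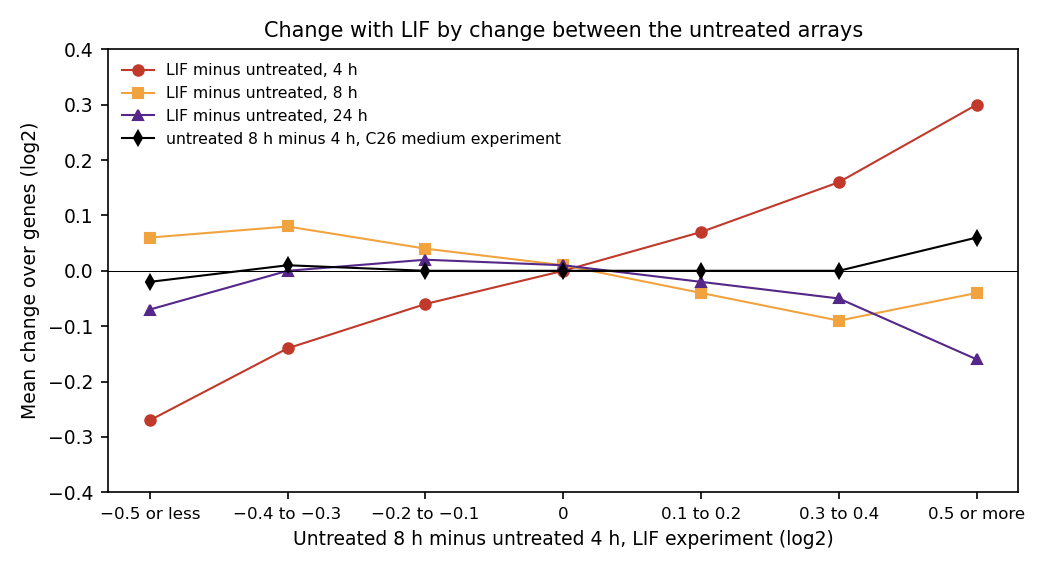
Mean log2 change over genes above background (vertical axis), grouped by how far untreated myotubes of the LIF experiment at 8 h differed from those at 4 h (horizontal axis). The line for LIF at 4 h climbs to 0.3 in the group of largest positive difference, while the lines for LIF at 8 h and for the untreated arrays of the C26 experiment stay within 0.1 of 0.

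Within the early window, the size of the change had no common course. Of the 75 higher genes above background, 26 had a larger change at 8 h, 20 at 4 h and 29 an equal one, and of the 53 lower genes 11, 21 and 21. Ptgfr, the receptor for prostaglandin F2 alpha, had a difference 0.6 larger at 8 h than at 4 h, as did Prg4, with 5.5 with LIF against 5.2 untreated at 4 h and 6.5 with LIF against 5.6 untreated at 8 h. Its LIF level at 4 h lay between the untreated levels, and it passed.

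Arrays that took no part in choosing the genes showed them at a later time and with another agent. The 24 h arrays of the LIF experiment had a median log2 level of 5.5, against 6.0 on its 4 h and 8 h arrays. Their levels are therefore not on 1 scale, and only differences within a time are compared. At 24 h of LIF, 43 of the 75 higher genes (57.3%) were again at least 0.3 higher, against 6.75% of all genes above background. Of the 53 lower genes, 25 (47.2%) were again at least 0.3 lower, against 7.34%. The 37 genes with opposite signs early gave 13 (35.1%) at least 0.3 higher and 3 (8.11%) at least 0.3 lower, so part of the share of the higher genes is also seen without a like early change. Of the higher genes 32 had a larger difference at 24 h than early, and 5 were past 0.3 the other way. With C26 medium, 21 of the higher genes (28.0%) were at least 0.3 higher at 4 h, 42 (56.0%) at 8 h and 35 (46.7%) at 24 h. Of all genes above background, 1.23%, 2.71% and 6.61% were. Of the lower genes, 4 (7.55%), 16 (30.2%) and 14 (26.4%) were at least 0.3 lower at 4, 8 and 24 h of C26 medium. The shares of all genes above background were 0.97%, 2.35% and 6.77%. At 4 h as many of the lower genes, 4 (7.55%), were at least 0.3 higher, and at 24 h 15 (28.3%) were, against 1.23% and 6.61% of all genes above background. Past 0.3, the lower genes thus had no common direction with C26 medium at these 2 times. Counting changes of any size, 36 of the 53 were below 0 and 17 above at 4 h (median -0.08), and 29 and 24 at 24 h. In total 34 higher and 12 lower genes went the same way past 0.3 both at 24 h of LIF and at 8 h of C26 medium. Of the 37 genes with opposite signs, 1 (2.7%), 8 (21.6%) and 15 (40.5%) were at least 0.3 higher at 4, 8 and 24 h of C26 medium. At least 0.3 lower were 4 (10.8%), 2 (5.41%) and 1 (2.7%) of them.

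**Figure D5:**
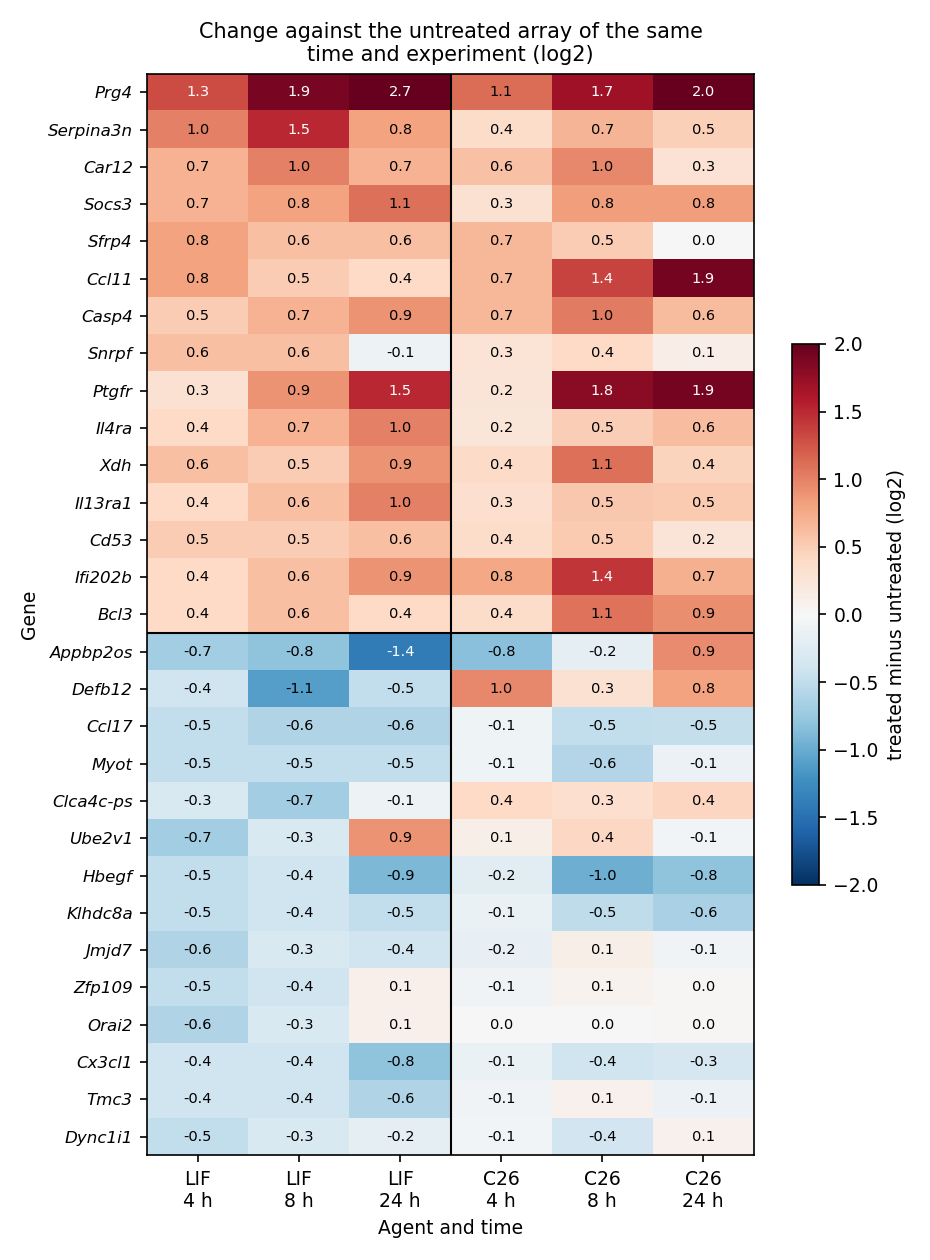
Log2 difference between treated and untreated arrays (colour and printed value) of the highest and lowest alike genes above background that are named in the text (vertical axis), for LIF and for C26 medium at 4, 8 and 24 h (horizontal axis). Prg4 runs from 1.3 to 2.7 with LIF and from 1.1 to 2.0 with C26 medium, whereas Defb12 and Clca4c-ps, lower with LIF, are higher with C26 medium.

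The genes that kept their direction included most of those described by function. Prg4 was 2.7 higher with LIF at 24 h, with 7.6 with LIF against 4.9 untreated, and 1.12, 1.70 and 2.04 higher with C26 medium at 4, 8 and 24 h. Socs3 was 1.1 higher with LIF at 24 h and 0.84 higher with C26 medium at 8 h, and Il4ra and Il13ra1 were each 1.0 higher with LIF at 24 h. Hbegf was 0.9 lower with LIF at 24 h and 0.98 lower with C26 medium at 8 h. Against these, Snrpf, a core protein of the splicing machinery, was 0.6 higher at 4 h and at 8 h and passed, but differed by -0.1 at 24 h. The interferon list differed between the agents. Its medians were 0.62 and 1.36 at 4 h and 8 h of C26 medium against 0.1 and 0.0 of LIF. The agents were used in separate experiments, so agent and experiment cannot be told apart. Oasl2 was 1.70 higher at 4 h and 3.19 higher at 8 h with C26 medium.

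Differences between agents and between times were also tested as such. Neither LIF at 24 h minus early LIF nor C26 medium minus LIF at 4 and 8 h gave a gene past an adjusted p of 0.05 in limma, where the smallest adjusted p was 0.0537 and 0.958 and 4015 and 910 genes had an unadjusted p under 0.05. With the rounding variance added, limma called 57 genes (0.269%) for the first contrast and 155 (0.732%) for the second. Prg4 was among those with a larger difference at 24 h, by 1.1, where the 24 h arm is 1 pair and the spread comes from the early pairs and from genes of like level. Since the 24 h arrays do not share the scale of the early ones, time and array cannot be told apart in the first contrast. In the second, each agent has its own experiment and untreated arrays, so agent and experiment cannot be told apart. Serpina3n had a smaller difference with C26 medium than with LIF, by -0.72 (limma adjusted p = 0.0032), with its untreated levels of the LIF experiment in the background range.

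A number of the alike genes are of uncertain standing. Of the 15 lowest named genes, Appbp2os, Defb12 and Orai2 were among those that lay in the background range with LIF at both times. Their bounds are small: Appbp2os, an antisense transcript, was at least 1.57-fold lower with LIF, Defb12, a defensin gene of epididymis, at least 1.41-fold, and Orai2, a calcium channel of store-operated entry, at least 1.32-fold. Appbp2os and Defb12 passed, and Orai2 did not. Ube2v1, a ubiquitin conjugating enzyme variant with near-identical copies, was 0.7 and 0.3 lower with LIF early, and its untreated level differed by -1.0 between 8 h and 4 h. Its levels at 24 h, 4.2 with LIF and 3.3 untreated, were both in the background range. Of the lower genes, Jmjd7, Zfp109, Tmc3, Dync1i1 and the pseudogene Clca4c-ps did not pass, and Klhdc8a, with 8.2 with LIF against 8.7 untreated at 4 h and 7.6 with LIF against 8.0 untreated at 8 h, did. The dim alike genes with the highest change were Cyp2d11, Serpinb9f, Ccl8, Tas2r137 and Gprasp2, at 0.4 to 0.5 on average, and the lowest included Oas1g, Apol10a, Higd1c and Pcdhga12, at -0.75 to -0.5, in a range where opposite signs were more frequent than like ones. The largest swing between the times, -1.0 at 4 h and 1.1 at 8 h for Zfp931, also lay in the background range. The next, picked after its values were seen, was AA792892 with 1.2 at 4 h and -0.7 at 8 h, at a mean level of 5.08 just above that range.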

How the data were processed

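The authors' deposited values were log2 expression values made with RMA (robust multi-array average), per the submitters' processing notes; for its version and the build, the sources used here give none. LIF arrays were rounded to 1 decimal and C26 arrays to 2. The authors' deposited fold change tables hold signed linear ratios, treated here as a score and used only as an alternative. The members and lists were chosen with earlier results of these data known. Genes were named through RefSeq GRCm38.p6 (20819 of 21187 identifiers matched). Differences were taken within each time and tested with limma 3.58.1 (R 4.3.3), using time as a block, moderated variances that follow the mean level, and Benjamini-Hochberg adjustment over all genes. The scripts were tested on simulated data. Ranked genes above background were the 15 highest and 15 lowest alike ones, 5 each way in the background range, 8 each way by limma p, 5 of opposite sign, alike members of 24 lists, and 24 genes set by name; predicted, receptor, RNA and immune segment genes were left out of ranks. Promoter windows come from RefSeq. A few single genes are not reported here. A total of 12 per-sample columns of the deposited tables were not used. The number of arrays limits the precision. Alternatives were other minimum changes, filters on dim genes, normalizations, variance models and single pairs.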

Additional observations from a re-analysis of the deposited data

Results flagged for a closer look

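Some genes had a difference with LIF that differed from the one at 24 h, or from the one with C26 medium at 4 and 8 h, in limma with the rounding variance added, a choice made after seeing the data. The limma fit without it called 0 genes for either contrast, and other settings called between 0 and 3909. Between 24 h and the early mean of LIF, the log2 change was larger by 1.1 for Prg4, and differed by 1.4 for Ube2v1, 0.9 for Cyb5d1, -0.8 for Col8a1, -0.6 for Ccn2 and -0.75 for Ccnb2. The 24 h arm is 1 pair, and Ube2v1 was in the background range on both of its arrays. Ccnb2, a mitotic cyclin, had 9.4 with LIF against 9.2 untreated at 4 h and 7.9 with LIF against 8.4 untreated at 24 h. Levels at 24 h are not on the scale of those at 4 h, so only the difference within each time is read.

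Between C26 medium and LIF at 4 and 8 h, the interferon genes stood out, at 2.24 for Oasl2, 1.26 for Xaf1, 0.92 for Stat2 and 0.6 for Ifi202b. Agent and experiment cannot be told apart in these differences. The chemokine gene Ccl2 differed by 1.03. Serpina3n differed by -0.72, Sprr1a by -0.51 and Ccn2 by -0.35. Genes that were lower with LIF but not with C26 medium gave 1.38 for Defb12, 0.86 for Clca4c-ps, 0.77 for Ube2v1 and 0.75 for Mrto4. Defb12 on both LIF arrays and Serpina3n on both untreated arrays of the LIF experiment were in the background range, so their differences have no exact size. Sprr1a, a stress-induced cornified envelope gene, was 0.5 and 0.4 higher with LIF and -0.06 at both times with C26 medium.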

How the results depend on the processing

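Of 21187 genes 205 were alike at 0.3. The count was 988 at a smallest change of 0.2, 68 at 0.4, 29 at 0.5 and 2 at 1. It was 85 without the dimmest 50% of genes, 128 with genes above background only, 84 with 24 h required too, and 83 from the authors' deposited fold changes, where a log2 change of 0.3 is rounded to a fold below the minimum. One pair alone gave 1509 to 1766 genes. Quantile normalization, centring, leaving out the dimmest 25% and, added after seeing the data, keeping genes within 0.3 between the untreated arrays each left the count within 1.5 times. The limma count of 0 for the early response became 2495 without a trend, with robust moderation or at an adjusted p of 0.10, 1232 without the dimmest 50%, 103 without the time block and 52 with the rounding variance added. The first of these add genes of equal change at both times, small ones included. For 24 h minus early the 0 became 3175, 1776, 3909, 2123 and 57 at an adjusted p of 0.10, without a trend, with robust moderation, without the dimmest 50% and with the rounding variance added, and for C26 medium minus LIF it became 1 with quantile normalization and 155 with the rounding variance added. The cause was not tested beyond the rounding. Limited to genes above background, the shares again past 0.3 became 57.3% of the higher and 47.2% of the lower genes at 24 h of LIF (46.8% and 34.0% of all alike genes), and 56.0% and 30.2% at 8 h of C26 medium (45.9% and 18.1%). The labels give no replicate numbers, and LIF and untreated arrays were paired by time in every fit but the one without the time block. With 1 array a group and values rounded to 0.1, changes under 0.3 cannot be told from the spread between untreated arrays. Larger changes at a single time also occur within that spread. Of the genes above background, 11.6% were past 0.3 between the untreated arrays and 2.65% past 0.5.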

Other observations

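Other alike genes above background, picked after their values were seen, encode enzymes that edit sugar chains, and growth factors. Sulf1, an extracellular sulfatase of heparan sulfate, had 9.9 with LIF against 9.6 untreated at 4 h, and 10.1 with LIF against 9.5 untreated at 8 h. Csgalnact1, which starts chondroitin sulfate chains, had 8.1 with LIF against 7.8 untreated at 4 h, and 8.3 with LIF against 7.8 untreated at 8 h. Vegfd, a growth factor of lymphatic vessels, had 6.6 with LIF against 6.3 untreated at 4 h, and 6.9 with LIF against 6.4 untreated at 8 h. At 24 h of LIF the differences of the 3 genes were 1.0, 1.1 and 1.1. Of these only Sulf1 passed limma with the rounding variance added.

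The mitotic genes Ncapg, Nusap1 and Sgo2a were 0.3 higher at both times, yet differed by -0.4, 0.0 and -0.4 at 24 h of LIF. Slc1a3, a glutamate transporter, had 6.7 with LIF against 6.2 untreated at 4 h and 7.1 with LIF against 6.6 untreated at 8 h, and was 1.30 higher with C26 medium at 8 h.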
